A study of Mus musculus with 6 samples.

Results

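Hmgcs1, Idi1, Fdps, Sqle, Cyp51, Dhcr7 and Insig1 belong to the pathway that makes cholesterol and to its feedback control. They were chosen by symbol from the probe sets that the platform annotation gives exactly 1 gene, and are 7 of the 18193 genes named in this way. They had 15 such probe sets, of which 14 passed the filter on dim signal, and every gene kept at least 1. None of the 7 imports cholesterol, so the uptake genes were taken from a separate list. They were compared between Noto-GFP-positive and GFP-negative cells on 6 expression arrays, because the hedgehog ligand made by the notochord carries a cholesterol modification.

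The cells came from litters of heterozygous Noto-GFP mouse embryos on a mixed 129S3;ICR background, at embryonic day 8.5 with a median of 6 somites and sexes mixed. Noto encodes a homeodomain transcription factor of the node and nascent notochord, and GFP marks cells in which its locus is active. Tissue behind the boundary of the first somites was pooled from 23, 39 or 52 embryos (pools 1, 2 and 3), dissociated with trypsin and sorted. The sorts yielded roughly 2600, 4300 and 6600 cells with GFP. From every pool both fractions were hybridised, which makes 3 arrays a group. All groups therefore share the reporter allele, and the GFP-negative group is a mixture of every other cell of that tissue.

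Cholesterol is built from acetyl-CoA through mevalonate, isoprenoid diphosphates, squalene and lanosterol. When sterols in the endoplasmic reticulum fall, the SREBP transcription factors are carried to the Golgi, cut by a pair of proteases and enter the nucleus, where they switch on most genes of this route as well as lipoprotein receptors. INSIG proteins hold the SREBP complex back when sterols are plentiful. Hedgehog proteins are released from their precursor with cholesterol attached, and the receiving cell reads the signal through the sterol-sensitive proteins Patched and Smoothened.

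SREBP proteins commonly act beside NF-Y and Sp1, so promoters of the genes were searched for an SREBP site (TCACNCCAC), an NF-Y site (CCAAT) and an Sp1 site (GGGCGG), on both strands. RefSeq promoter sequences (GRCm38.p6) were found for 5 of the 7 genes, and Sqle and Fdps had no entry. Only the 250 bases before each annotated start were used, which gave 7 windows because Dhcr7 has several starts. The windows of Hmgcs1 (chr13:119690101-119690350, plus strand) and Idi1 (chr13:8885356-8885605, plus strand) are shown because the results turn on these genes. They read 5′ to 3′, with the matched letters in capitals.
Hmgcs1: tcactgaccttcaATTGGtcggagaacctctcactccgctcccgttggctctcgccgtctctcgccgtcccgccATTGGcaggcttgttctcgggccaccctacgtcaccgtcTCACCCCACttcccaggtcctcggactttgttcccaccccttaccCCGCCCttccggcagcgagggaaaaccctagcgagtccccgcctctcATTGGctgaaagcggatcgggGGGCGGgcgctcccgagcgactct
Idi1: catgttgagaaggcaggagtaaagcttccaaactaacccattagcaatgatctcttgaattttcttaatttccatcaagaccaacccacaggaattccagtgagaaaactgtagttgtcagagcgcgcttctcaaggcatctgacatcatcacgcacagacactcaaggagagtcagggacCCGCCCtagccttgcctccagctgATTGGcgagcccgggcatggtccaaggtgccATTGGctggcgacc

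The Hmgcs1 window held 1 SREBP match, whose first base lies 137 bases before the start, with 3 NF-Y and 2 Sp1 matches, none overlapping another. The Idi1 window held 2 NF-Y matches and 1 Sp1 match and no match to the SREBP letters. Of the 7 windows, which come from 5 genes, 1 held the SREBP letters, 5 the NF-Y letters and 6 the Sp1 letters. The windows of Dhcr7 were counted separately, although some of them overlap. Among 32851 promoter windows of the same length, the shares were 1.05%, 33.8% and 32.7%. A match is a stretch of letters and not evidence of binding.

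Cell type markers were compared between the groups, from lists chosen with earlier results of these data known. All 10 markers of node and notochord were higher in GFP-positive cells, with summed intensities of 8943 to 11279 against 313 to 785. Of 10 lateral mesoderm markers, 6 were lower (416 to 720 against 2424 to 5908), as were 5 of 9 endothelial and blood markers (309 to 3609 against 6437 to 17463). Of 10 presomitic and somite markers, 6 were higher (5111 to 5760 against 1737 to 2112). The gut endoderm list had 4 of 9 higher and 1 lower (1215 to 2773 against 745 to 947), the visceral endoderm list 0 of 9 either way (344 to 2207 against 207 to 982), and the neural plate list 1 of 9 lower (2115 to 2550 against 3044 to 3243). Noto itself was not analysed here. Both arrays of pool 1 stood apart in RNA quality: for Gapdh, signal at the 3′ end divided by that at the 5′ end was 14 and 15.4 there and 1.60 to 2.22 on the other 4 arrays, and the beta-actin ratio was 14.9 and 22.7 against 1.90 to 2.75. Results are therefore also given without pool 1.

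Of the 7 genes, 1 fell and 0 rose in GFP-positive cells (limma, Benjamini-Hochberg over 12628 genes, adjusted p under 0.05). The gene that fell was Idi1, which had about 1.73-fold more signal in GFP-negative cells. Over all genes 2.95% were higher and 1.71% lower in the same fit. At an unadjusted p under 0.05 the counts among the 7 were the same, 0 higher and 1 lower. The share of all genes at that unadjusted cut-off was not computed, so the shares above do not apply to it. The median log2 fold change of the 7, GFP-positive over GFP-negative, was -0.16, and that of all genes was 0.01. Fold changes are on the log2(intensity + 32) scale, which understates changes of dim genes. In sorted pools, fewer cells that express a gene and less RNA per cell cannot be told apart.

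The mevalonate end of the route begins with Hmgcs1, the cytosolic synthase that makes HMG-CoA. Its probe set with the highest mean read 4956, 3171 and 3564 on the GFP-positive arrays of pools 1, 2 and 3, and 5961, 2343 and 2492 on the GFP-negative arrays. Both arrays of pool 1 were the highest of their group, and the groups overlapped. The log2 fold change was 0.23 ± 0.36 (SE, adjusted p = 0.739), with a 95% interval of -0.59 to 1.04. Within pools it was -0.26, 0.43 and 0.51. Without pool 1 it was 0.47 ± 0.11 and passed (adjusted p = 0.0119). In that fit 20.1% of genes were higher and 18.2% lower. It also passed without the GFP-negative array of pool 1 alone (0.66, adjusted p = 0.0473). There 1389 genes were higher and 1342 lower, against 372 and 216 in the main fit. Over all alternatives the adjusted p of Hmgcs1 lay between 0.0119 and 0.995.

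Of the 4 other kept probe sets of Hmgcs1, 3 had the opposite sign. The suffix _x_at marks a set whose probes may also match other transcripts. Probe set 1433446_at read 285, 250 and 321 on GFP-positive arrays and 479, 522 and 597 on GFP-negative arrays. Its groups did not overlap, which held for 12.2% of all genes, each by 1 probe set, in the same direction. It was lower in GFP-positive cells in 3 of 3 pools, by log2 differences of -0.69, -0.97 and -0.83. Its fitted value was -0.83 ± 0.21 (SE), with an adjusted p of 0.0886 over 27821 probe sets, where 1.81% passed. With a block for the pool it passed (adjusted p = 0.0233, where 9.86% of probe sets passed), and without pool 1 it had -0.90 ± 0.16 (adjusted p = 0.00405, where 30.5% passed).

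In that last fit 3 of the 5 kept Hmgcs1 probe sets passed with both signs among them, since 1433445_x_at had -0.37 ± 0.12 (adjusted p = 0.0421) and the one with the highest mean 0.47 ± 0.12 (adjusted p = 0.0184 over probe sets). The remaining pair did not pass in any of these 3 fits: 1433444_at had -0.16 ± 0.32, and the dim 1441536_at, at 11.9 to 31.6 on all arrays, had 0.11 ± 0.17. A single direction for Hmgcs1 could therefore not be given.

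Idi1, the isomerase that interconverts both 5-carbon isoprenoid units, was lower in GFP-positive cells. Its signal was 746, 646 and 669 on GFP-positive and 1297, 1185 and 1158 on GFP-negative arrays. Every GFP-positive value lay below every GFP-negative value, which held for 12.2% of all genes in the same direction. Mean intensity was 687 ± 52 (SD, n = 3) against 1214 ± 73.7, and the log2 fold change was -0.79 ± 0.18 (SE, adjusted p = 0.0475). The differences within pools lay close together, at -0.77, -0.84 and -0.76. It passed with a block for the pool (adjusted p = 0.0176, where 7.76% of genes were higher and 5.99% lower) and without pool 1 (-0.80 ± 0.12, adjusted p = 0.00118).

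The Idi1 call sat at the threshold and rested on 1 probe set. When variances were moderated over all probe sets rather than 1 per gene, its adjusted p was 0.0545. It passed in 2 of 9 fits that left out an array or a pool. Without pool 1, 2369 genes were higher and 2137 lower over all genes, and without the GFP-negative array of pool 1, 1389 and 1342. In the other 7 fits its adjusted p ran from 0.0542 (without the GFP-positive array of pool 1) to 0.685 (without pool 2). The fit without pool 2 leaves 2 arrays a group, and 4 genes were higher and 0 lower there. The 2 fits that Idi1 passed were those without pool 1 and without the GFP-negative array of pool 1. Its other probe set, 1423804_a_at, read 708, 407 and 364 on GFP-positive and 859, 422 and 382 on GFP-negative arrays. This probe set had -0.13 ± 0.36 (adjusted p = 0.88 over probe sets), with both arrays of pool 1 well above the other 4. The mean over both probe sets gave -0.46 and did not pass (adjusted p = 0.288). Over all alternatives the Idi1 value lay between -0.85 and -0.46 and its adjusted p between 0.00118 and 0.685.

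**Figure D1:**
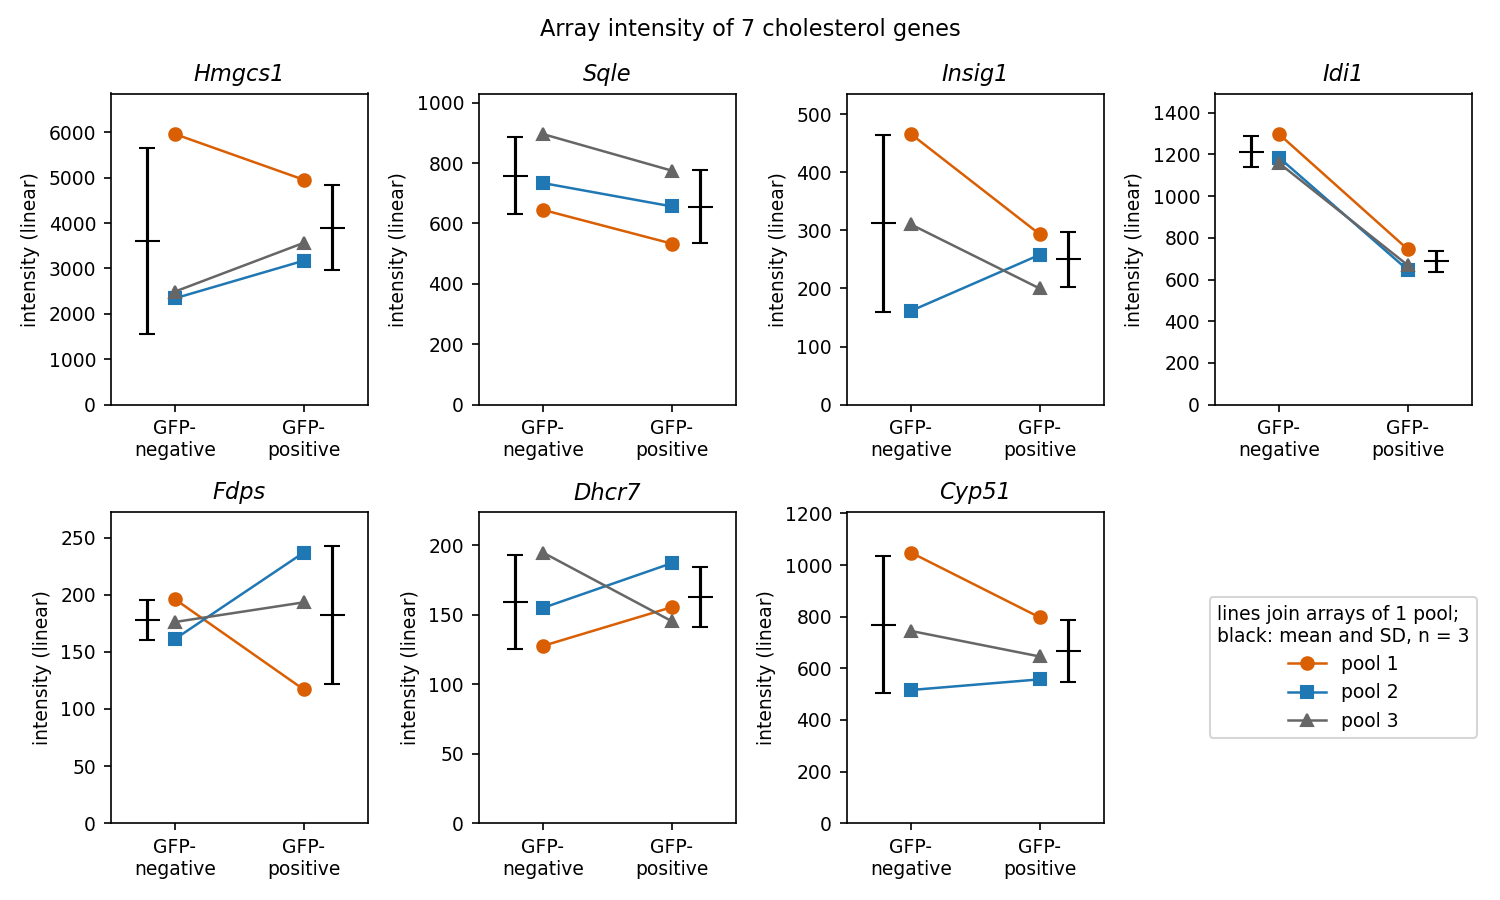
Array intensity on a linear scale (y axis) in GFP-negative and GFP-positive cells for the 7 genes, each by its probe set with the highest mean; coloured points and lines are the arrays of each pool, and black marks show the mean and SD of 3 arrays. Idi1 falls in all 3 pools from 1158 to 1297 down to 646 to 746, while the groups overlap for the other 6 genes.

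Fdps, the synthase of farnesyl diphosphate at the branch point of sterols and other isoprenoids, read 117, 237 and 193 on GFP-positive and 196, 161 and 176 on GFP-negative arrays. The lowest and the highest values both lay in the GFP-positive group. Its log2 fold change was -0.01 ± 0.25 (SE, adjusted p = 0.991), with a 95% interval of -0.59 to 0.57, and the pools differed in sign (-0.61, 0.48 and 0.11). Without pool 1 the value was 0.30 ± 0.16 (adjusted p = 0.169). A further Fdps probe set, at 0.585 to 5.18 on all arrays, did not pass the filter.

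Sqle, the squalene epoxidase, catalyses the first oxygen-dependent step and is a control point of the route. Its values were 533, 657 and 775 on GFP-positive and 645, 734 and 896 on GFP-negative arrays. It was lower in GFP-positive cells in 3 of 3 pools, by -0.26, -0.15 and -0.20. The pools themselves spread further than that, and the groups overlapped. The fitted value was -0.20 ± 0.22 (SE, adjusted p = 0.618, interval -0.71 to 0.30). With a block for the pool, which takes out the spread between pools, the adjusted p was 0.383.

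Cyp51, the demethylase of lanosterol, read 797, 557 and 646 on GFP-positive and 1048, 516 and 745 on GFP-negative arrays. The groups overlapped, with the highest value on the GFP-negative array of pool 1. Its log2 fold change was -0.16 ± 0.28 (SE, adjusted p = 0.772, interval -0.80 to 0.48). Of its other probe sets, 1422533_at had -0.09 ± 0.25 and the dim 1422534_at 0.02 ± 0.18, and neither passed.

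Dhcr7 reduces 7-dehydrocholesterol in the final step, and loss of the human gene causes a malformation syndrome, Smith-Lemli-Opitz. Its intensities were 155, 187 and 145 on GFP-positive arrays and 128, 155 and 195 on GFP-negative arrays, so the groups covered nearly the same range. The log2 fold change was 0.04 ± 0.21 (SE, adjusted p = 0.939), with an interval of -0.45 to 0.52.

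Insig1 is the feedback protein of the set, itself a target of SREBP. It read 293, 258 and 200 on GFP-positive and 465, 161 and 310 on GFP-negative arrays. The GFP-negative group held both the highest and the lowest value. The log2 fold change was -0.20 ± 0.34 (SE, adjusted p = 0.766, interval -0.98 to 0.59); within pools it was -0.61, 0.58 and -0.56, and without pool 1 it was 0.01 ± 0.25.

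Without pool 1, Sqle, Cyp51 and Dhcr7 had -0.18 ± 0.15, -0.05 ± 0.18 and -0.06 ± 0.17 and did not pass (adjusted p = 0.375, 0.859 and 0.801). Of the 7 intervals, 5 lay wholly within a 2-fold change in either direction. The exceptions were Idi1, whose interval reached -1.21, and Hmgcs1, whose interval reached 1.04. A p above the threshold does not show that levels were equal, and differences smaller than these intervals were not detectable with 3 arrays a group. Of all 14 probe sets kept, 0 passed over probe sets (limma, adjusted p under 0.05), and 2 (1433446_at and the Idi1 probe set above) had intervals wholly below 0, which corresponds to an unadjusted p under 0.05. With a block for the pool both passed.

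**Figure D2:**
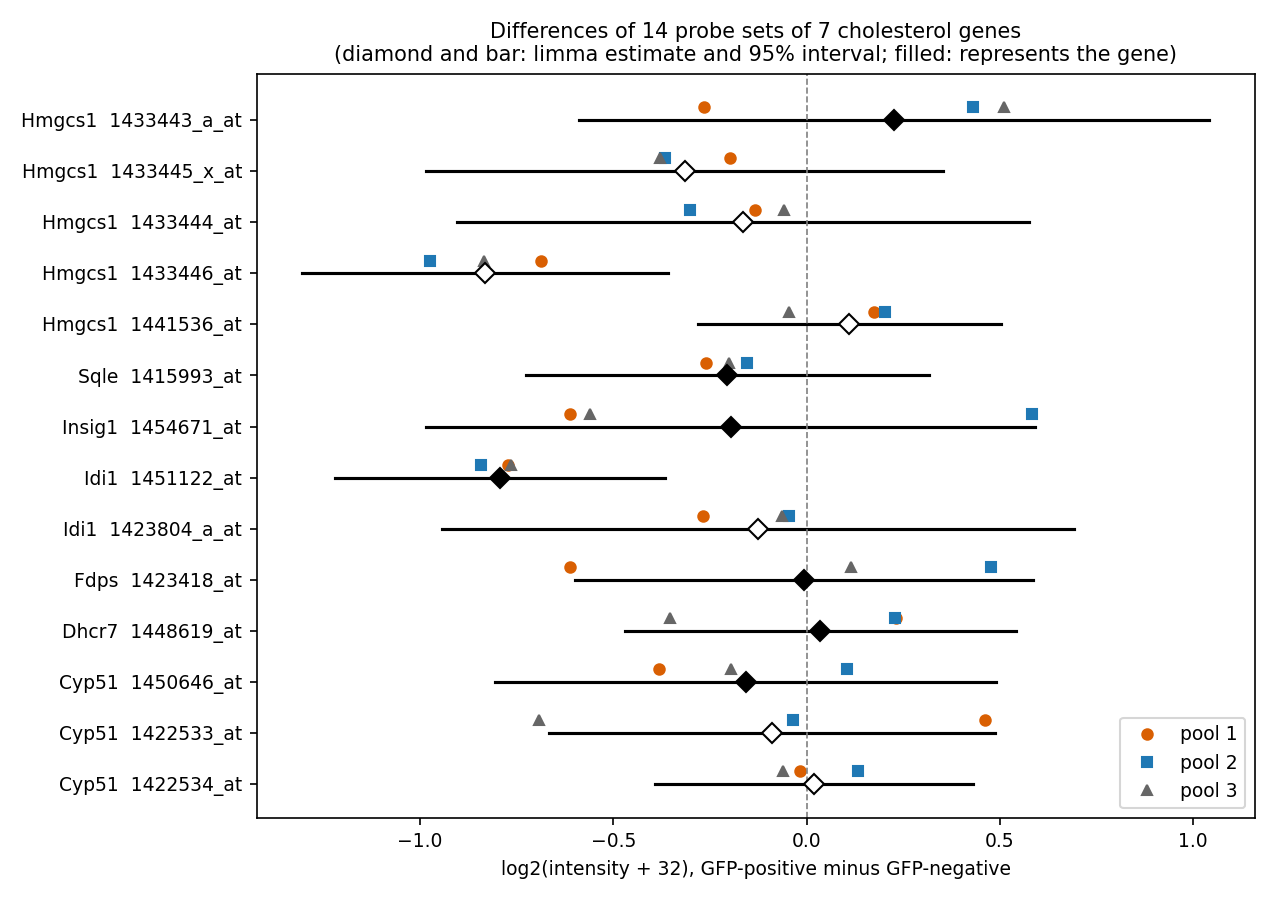
Difference between GFP-positive and GFP-negative cells in log2(intensity + 32) (x axis) for each of the 14 kept probe sets (y axis), with the limma estimate and 95% interval as a diamond and bar and the difference in each pool as coloured points. Probe sets of Hmgcs1 lie on both sides of 0, from -0.83 to 0.23, and the Idi1 probe sets at -0.79 and -0.13.

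The 7 genes did not move as 1 block across the 6 arrays. Over the 21 pairs of genes, Pearson correlations of log2 values ran from -0.70 (Hmgcs1 with Sqle) to 0.91 (Insig1 with Cyp51), with a median of -0.07 and 10 pairs above 0. The 3 highest were those among Insig1, Cyp51 and Hmgcs1 (0.91, 0.80 and 0.70). These are descriptions over 6 arrays that share pools and scaling. The mean of both pool 1 arrays lay above the mean of the other 4 by 0.92 (log2) for Hmgcs1, 0.64 for Insig1, 0.56 for Cyp51 and 0.16 for Idi1. It lay below for Sqle (-0.36), Fdps (-0.27) and Dhcr7 (-0.22). Over all genes the median size of this displacement was 0.29, which 4 of the 7 exceeded. The part of RNA quality in it was not tested.

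**Figure D3:**
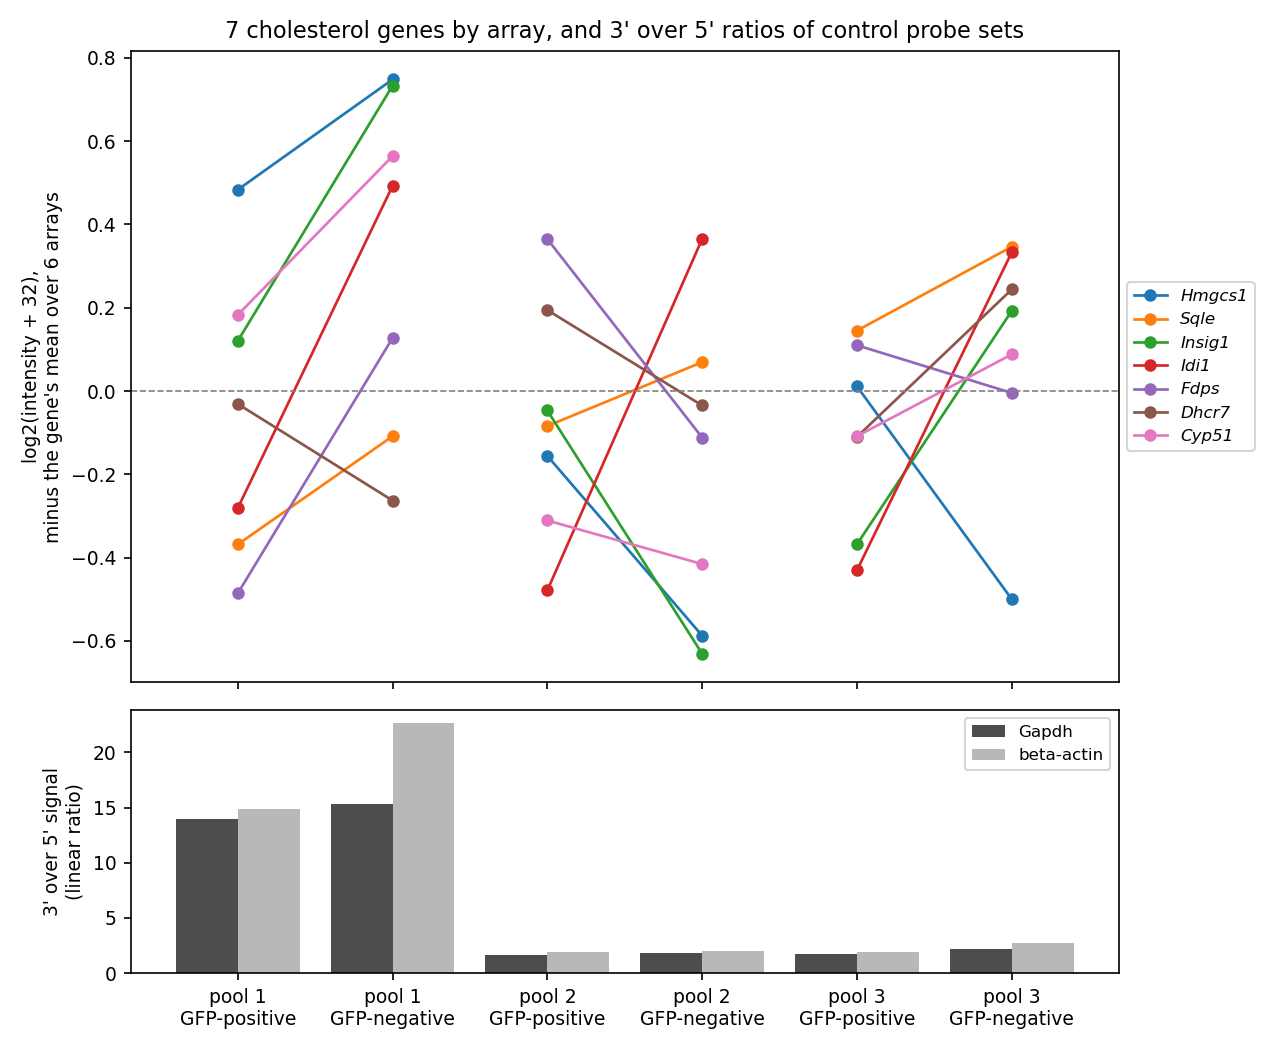
Upper panel: log2(intensity + 32) of each of the 7 genes minus its mean over 6 arrays (y axis), by array, with lines joining the arrays of 1 pool. Lower panel: ratio of signal at the 3′ end to signal at the 5′ end of Gapdh and beta-actin on the same arrays, which is 14 or more in pool 1 and at most 2.75 elsewhere; Hmgcs1, Insig1 and Cyp51 lie highest on the GFP-negative array of pool 1.

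Outside the 7, the genes whose log2 profile over the 6 arrays was most like the mean standardised profile of the set were Dnaic1, Rpl35, Trpm2, Cfl1, Ina and Hgh1, with Pearson r of 0.97, 0.97, 0.97, 0.96, 0.96 and 0.96. Their own log2 fold changes were small, between -0.27 (Trpm2) and -0.07 (Dnaic1).

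Related genes were taken as 7 lists. Their counts at an adjusted p under 0.05 are to be read against all genes, of which 2.95% were higher and 1.71% lower. In the fit without pool 1, 20.1% of all genes were higher and 18.2% lower. Counts by unadjusted p have no such share beside them and are not to be read against these. The rest of cholesterol synthesis showed 1 change. Of 16 further enzymes and cofactors listed, 13 were measured, and 1 was higher, 0 lower and 12 did not pass, with a median log2 fold change of -0.09 (unadjusted p under 0.05: Hsd17b7 higher, Lbr lower). The gene that rose was Hsd17b7, the keto-reductase of sterol demethylation, at 1193, 804 and 1021 on GFP-positive and 578, 470 and 462 on GFP-negative arrays. The groups did not overlap, and the share of all genes apart in this direction was not computed. These values are from an _x_at set, whose probes may also match other transcripts. Its log2 fold change was 0.94 ± 0.22 (SE, adjusted p = 0.0492). Its 3 other kept probe sets had the same sign, at 1.18 (adjusted p = 0.0406 over probe sets), 0.32 and 0.31. Like Idi1, it passed in 2 of 9 fits that left out an array or a pool, and its adjusted p was 0.0553 with moderation over probe sets.

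Lbr, a sterol reductase of the nuclear envelope, and Lss, which makes lanosterol, had -0.53 ± 0.18 and -0.47 ± 0.33 and did not pass (adjusted p = 0.134 and 0.429). The isomerase Ebp had -0.61 ± 0.53 and passed with a block for the pool (adjusted p = 0.0488). It read 189, 503 and 578 on GFP-positive and 264, 784 and 1025 on GFP-negative arrays, lower in 3 of 3 pools. Without pool 1, 1 of the 13 was higher (Hsd17b7) and 3 were lower: Lbr (-0.58, adjusted p = 0.00502), Lss (-0.65, adjusted p = 0.0314) and Ebp (-0.70, adjusted p = 0.00864). The other kept probe set of Lss had the opposite sign over all 6 arrays.

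Uptake and intracellular transport also showed 1 change. Of 15 genes listed 12 were measured, 0 were higher, 1 was lower and 11 did not pass, with a median of -0.03 (unadjusted p under 0.05: Lrp1 and Npc2 higher; Lrp2, Vldlr and Lrp8 lower). Lrp2, or megalin, an endocytic receptor of lipoproteins and other ligands that also binds hedgehog protein, fell by 1.08 ± 0.19 on the log2 scale (SE, adjusted p = 0.023). It read 29.2, 33.6 and 26.0 on GFP-positive and 76.1, 128 and 95.2 on GFP-negative arrays. The GFP-positive values lay near the array medians of 19.8 to 28, where signal and background are hard to separate. Other kept probe sets of Lrp2 had -0.81 and -0.12. Neither passed over probe sets (limma, adjusted p = 0.0543 and 0.663). The lipoprotein receptors Vldlr and Lrp8 had -0.79 ± 0.22 and -0.76 ± 0.27 and did not pass (adjusted p = 0.0821 and 0.147); Vldlr passed with a block for the pool (adjusted p = 0.0302) and was lower in 3 of 3 pools. Npc2, which hands cholesterol on for export from the lysosome, and the receptor Lrp1 had 0.60 ± 0.21 and 0.63 ± 0.25 (adjusted p = 0.148 and 0.181). Without pool 1, 3 of 11 genes were higher and 4 lower. Those higher were Npc2 (0.80, adjusted p = 0.000849), Lrp1 (0.76, adjusted p = 0.00484) and Mylip (0.94, adjusted p = 0.0014). Those lower were Lrp2 (-1.21, adjusted p = 0.00128), Lrp8 (-1.07, adjusted p = 0.000746), Vldlr (-0.62, adjusted p = 0.0281) and Stard4 (-0.65, adjusted p = 0.0148). The other kept probe set of Lrp8 had the opposite sign over all 6 arrays.

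None of the SREBP control genes passed in the fit over all 6 arrays without a block for the pool. Of 12 listed 10 were measured, with a median of 0.03; in limma 0 were higher and 0 lower, against 0 and 2 (Mbtps2 and Rnf139) by unadjusted p under 0.05. Srebf2, the factor chiefly tied to cholesterol genes, had -0.17 ± 0.35, and Srebf1, tied to fatty acid genes, 0.31 ± 0.20. Both proteases of SREBP leaned apart, with 0.53 ± 0.30 for Mbtps1 and -0.74 ± 0.25 for Mbtps2 (adjusted p = 0.32 and 0.13). Mbtps2 and Rnf139, a ligase of the endoplasmic reticulum (-0.85 ± 0.35, adjusted p = 0.197), passed with a block for the pool (adjusted p = 0.0395 and 0.028). Insig2, the paralog of Insig1, had -0.27 ± 0.25. Without pool 1, Mbtps1 was higher (0.49, adjusted p = 0.0176), 1 of 10 genes. In that fit 4 were lower: Mbtps2 (-0.94, adjusted p = 0.00106), Rnf139 (-1.02, adjusted p = 0.00193), Rnf145 (-0.77, adjusted p = 0.00105) and Insig2 (-0.49, adjusted p = 0.0169). Over all 6 arrays, 2 of 2 other kept probe sets of Insig2 had the opposite sign, and 1 of 2 of Mbtps1.

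Genes of efflux, storage and oxysterols did not pass in the fit over all 6 arrays without a block either. Of 16 listed 11 were measured, with a median of 0.19; 0 passed in limma, whereas by unadjusted p under 0.05 Cyp27a1 was higher and Abcg5 lower, 1 each way. The half-transporters Abcg5 and Abcg8 had -0.49 ± 0.15 and 0.31 ± 0.15 at intensities of 9.39 to 37.9, near the array medians. Cyp27a1, an oxysterol enzyme, had 0.49 ± 0.18 (adjusted p = 0.156). Apoe, the apolipoprotein of lipid export, read 58.2, 332 and 336 on GFP-positive and 42.0, 86.8 and 112 on GFP-negative arrays, higher in 3 of 3 pools, with 1.09 ± 0.53 (adjusted p = 0.266). It passed with a block for the pool (adjusted p = 0.0348) and without pool 1 (1.48 ± 0.16, adjusted p = 0.00024). Without pool 1, Cyp27a1 was the other of 2 genes higher (0.63, adjusted p = 0.0358), and 0 of 10 were lower. The summed visceral endoderm markers, given above, overlapped between the groups, but in the fits in which Apoe passed some of them passed too. Afp was higher with the block (adjusted p = 0.0107), and without pool 1 Afp (1.49, adjusted p = 0.00258) and Rbp4 (0.75, adjusted p = 0.0298) were higher and Hnf4a lower (-1.20, adjusted p = 0.00219). Over all 6 arrays, 1 of 3 other kept probe sets of Afp had the opposite sign. The part of these markers in the Apoe values was not tested.

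Isoprenoid branch genes, which lead from farnesyl diphosphate to dolichol, ubiquinone and protein prenylation, showed 0 of 11 measured genes passing in limma, with 0 higher and 1 lower by unadjusted p under 0.05 and a median of 0.00. The 1 was Nus1, a subunit of the dolichol-forming prenyltransferase, at 603, 731 and 850 on GFP-positive and 745, 3355 and 3377 on GFP-negative arrays. Its fold change was -1.46 ± 0.53 on the log2 scale (adjusted p = 0.151); it was -0.29 in pool 1 against -2.15 and -1.95 in the others, and a block for the pool brought the adjusted p to 0.0308. Of its 5 other kept probe sets 4 had the same sign, from -1.64 to -0.01, and 1 the opposite (0.06). The farnesyltransferase subunit Fnta and the geranylgeranyl diphosphate synthase Ggps1 had 0.25 ± 0.19 and 0.36 ± 0.29. Without pool 1, 3 of 11 were higher, Fnta (0.45, adjusted p = 0.0103), Ggps1 (0.44, adjusted p = 0.0475) and Icmt (0.45, adjusted p = 0.0298), and 2 lower, Nus1 (-2.05, adjusted p = 2.04e-05) and Rce1 (-0.53, adjusted p = 0.0358). Over all 6 arrays, 2 of 3 other kept probe sets of Ggps1 had the opposite sign.

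Fatty acid synthesis, the other main branch under SREBP, had 13 of 14 genes measured, of which 0 were higher, 1 lower and 12 did not pass, with a median of -0.12 (unadjusted p under 0.05: Fads2 and Mid1ip1 higher; Scd1, Me1 and Elovl6 lower). The stearoyl-CoA desaturase Scd1, which makes monounsaturated fatty acids, read 355, 443 and 409 on GFP-positive and 830, 1297 and 1414 on GFP-negative arrays. It fell by 1.45 ± 0.24 on the log2 scale (SE, adjusted p = 0.0181), lower in 3 of 3 pools (-1.16, -1.48 and -1.71). Its other kept probe set had -0.17 ± 0.20. Me1, a source of NADPH, and the desaturase Fads2 had -0.66 ± 0.21 and 0.70 ± 0.23 and did not pass (adjusted p = 0.108 and 0.12). With a block for the pool, 1 was higher (Mid1ip1, adjusted p = 0.0331) and 3 lower (Scd1, Me1 and the elongase Elovl6). Without pool 1, 4 of 13 were higher: Fads2 (0.95, adjusted p = 0.00122), Mid1ip1 (0.69, adjusted p = 0.0121), Fasn (0.55, adjusted p = 0.00938) and Scd2 (0.35, adjusted p = 0.0272). In that fit 4 were lower: Scd1 (-1.60), Me1 (-0.73), Elovl6 (-0.55) and Acaca (-0.42), with adjusted p from 6.22e-05 to 0.0473. Over all 6 arrays, 2 of 2 other kept probe sets of Scd2 had the opposite sign. The GFP-negative lateral mesoderm and blood markers described above moved in the same direction as Scd1, Lrp2 and Idi1, and their part in these results was not tested.

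**Figure D4:**
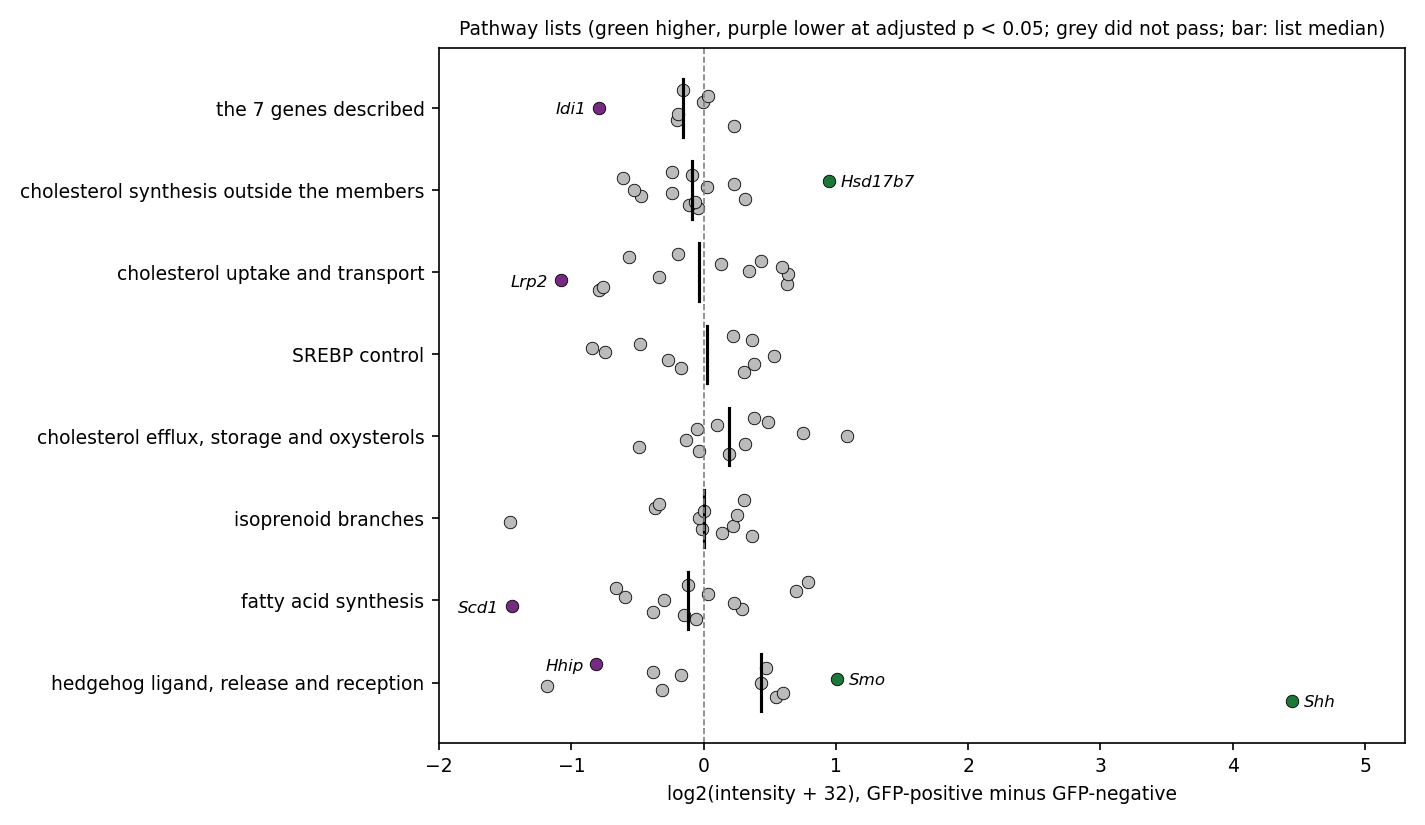
Difference between GFP-positive and GFP-negative cells in log2(intensity + 32) (x axis) for the 7 genes and for each measured gene of 7 lists (y axis), each point a gene and each bar the median. Coloured genes passed at an adjusted p under 0.05: Idi1, Lrp2, Scd1 and Hhip were lower, and Hsd17b7, Shh and Smo higher.

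Handling of the hedgehog ligand was the last list, 13 genes of which 11 were measured, with 2 higher, 1 lower, 8 not passing and a median of 0.43 (unadjusted p under 0.05: Shh, Smo, Disp1, Hhat and Ptch1 higher; Hhip and Scube3 lower). Shh itself had 5774, 4660 and 5097 on GFP-positive and 47.0, 348 and 418 on GFP-negative arrays, and Smo rose by 1.01 ± 0.22 (adjusted p = 0.0453) while Hhip, at -0.81 ± 0.17, was lower (adjusted p = 0.0412). Other kept probe sets had 0.93 and 0.12 for Smo and -0.15 for Hhip, and none of these passed over probe sets. With moderation over probe sets Smo had an adjusted p of 0.0504. Hhip read 26.2, 14.2 and 17.6 on GFP-positive arrays, near the array medians. Mean Shh signal was 5177 ± 562 (SD, n = 3) against 271 ± 197. None of the 7 cholesterol genes rose in the fit over all 6 arrays, where 2.95% of all genes did. Nothing particular to the 7 is read from this count. The acyltransferase Hhat and the exporter Disp1, which releases the cholesterol-modified ligand, had 0.55 ± 0.17 and 0.60 ± 0.18 (adjusted p = 0.104 and 0.0939) and were higher in 3 of 3 pools. Ptch1, the receptor, had 0.43 ± 0.18 (adjusted p = 0.211), and Scube3, a secreted helper of ligand release, -1.19 ± 0.28 (adjusted p = 0.0523, and 0.0194 with a block for the pool). Without pool 1, Hhat and Disp1 passed (adjusted p = 0.0315 and 0.0236), as did Scube3 (-0.88, adjusted p = 0.00561), and Ptch1 did not (0.21, adjusted p = 0.186); 5 of 10 genes were higher there, the others being Shh, Smo and Gas1, and 3 lower, the others being Hhip and Cdon.

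Over the 7 lists together, 3 of 81 measured genes (3.70%) were higher and 3 (3.70%) lower, where 2.95% and 1.71% of all genes were. With a block for the pool the counts were 5 (6.17%) and 11 (13.6%), against 7.76% and 5.99% of all genes. Without pool 1 they were 19 (24.4%) and 20 (25.6%) of 78 tested, against 20.1% and 18.2%. Nothing particular to the lists is read from these shares. Hsd17b7 (0.58), Lrp2 (0.429), Scd1 (0.419), Smo (0.67), Hhip (0.66) and Shh (0.127) had their largest adjusted p over the alternatives with pool 2 left out. None of these calls held there, in a fit of 2 arrays a group where 4 genes were higher and 0 lower over all genes. With pool 1 left out all 6 held, where 20.1% of genes were higher and 18.2% lower.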

How the data were processed

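Total RNA of sorted cells from 3 embryo pools was amplified in both rounds of an Affymetrix kit, labelled with biotin and hybridised to 6 arrays, per the labels' protocols. The authors deposited linear array intensities of 1 colour; the submitters' processing notes name GCOS 1.4. With 2% of the values cut from either end, every array had a mean of 150, so the arrays share a scale. The 45101 probe sets include 64 controls, and the platform annotation gave 1 symbol to 34945, several to 932 and none to 9160.

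Here, log2(intensity + 32) was fitted with limma 3.58.1 (eBayes with a variance trend, R 4.3.3) with group as the only term. Probe sets were kept if at least 3 arrays reached their own 40th percentile (27821). For each of 12628 genes the kept probe set of highest mean stood for the gene, the fit was repeated on these, and Benjamini-Hochberg adjustment ran over genes; other probe sets were adjusted over probe sets. Changes needed an adjusted p under 0.05. The fit was also run on simulated data with independent noise on each array. Those data held no pool effects, so they cannot show how the fit treats differences between pools.

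Arrays of 1 number come from 1 pool, per the labels, which pairs them; after subtraction of group means the paired arrays correlated at 0.542, 0.286 and 0.436, and arrays of different pools at -0.523 to 0.380, so the pairing rests on the labels. Genes and lists were chosen with earlier results of these data known. Named genes were the 7, the 3 genes of each list with the smallest adjusted p, those that a printed count of 5 or fewer consists of, the 6 genes most alike in profile, and Srebf1, Srebf2, Ebp, Apoe, Afp, Rbp4 and Hnf4a, chosen after their values were seen. Figures used Python 3.11.15 and matplotlib 3.10.9.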

Additional observations from a re-analysis of the deposited data

How the results depend on the processing

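The values of Idi1, Sqle and the 3 list genes of smallest adjusted p in each of the 7 lists kept their direction under every alternative run, whereas 13 alternative values of the other genes changed sign. Among these were Hmgcs1 with the mean over probe sets (-0.19) and, at lowest, -0.011 with arrays left out (range -0.011 to 0.66), and Fdps with arrays centred on their medians (0.094). The others lay in the fits with arrays or pools left out, whose ranges were -0.59 to 0.12 for Insig1, -0.25 to 0.30 for Fdps, -0.087 to 0.23 for Dhcr7 and -0.40 to 0.085 for Cyp51. None of these passed apart from Hmgcs1 at its 2 highest values, without pool 1 and without the GFP-negative array of pool 1. Centring on medians moved the median of all genes to 0.11 from 0.01, and the share of calls that were higher to 74.8% from 63.3%.

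The count of cholesterol genes lower was 0 in place of 1 with an offset of 1, median centring, no filter, the mean over probe sets, a threshold of 0.01 and, chosen after seeing the data, moderation over probe sets. With arrays or pools left out, 0 to 1 were lower and 0 to 1 higher.

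Over all genes, 372 were higher and 216 lower. These counts were 233 and 101 without the filter, 980 and 757 with a replicate block for the pool, 92 and 22 at a threshold of 0.01 and 734 and 508 at 0.1, and ranged over 4 to 2369 and 0 to 2137 with arrays or pools left out. List genes higher (3) and lower (3) became 1 and 1 without the filter, 5 and 11 with the replicate block and 1 and 0 at 0.01. At 0.1, 5 were lower, and with moderation over probe sets 1 was higher. Left-out arrays or pools gave 0 to 19 higher and 0 to 20 lower. The block changed the call of no gene among the 7. The extremes lay without pool 2 (4 and 0 genes) and without pool 1. The cause of these changes was not tested. The number of arrays limits precision, and signals near the array medians may be background.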
